A study of Homo sapiens with 6 samples.

Results

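The genes described here are 9 of the JAK-STAT signalling family, chosen by name: the transcription factors STAT2, STAT3, STAT5A, STAT5B and STAT6, the Janus kinases JAK1, JAK2 and TYK2, and the feedback inhibitor SOCS3. All 9 were found among the 27394 genes of the deposited table. They were measured by RNA-seq in PANC-1, an established human pancreatic cancer cell line of epithelial origin grown with fetal bovine serum. The shControl group held 3 libraries from cells that received a control short hairpin RNA, and the shZDHHC20 group held 3 libraries from cells that received a hairpin against ZDHHC20, a palmitoyltransferase that attaches fatty acids to cysteines of other proteins. The labels give both groups the same transfection or infection treatment and name no cytokine treatment and no time point. The labels do not say whether the 3 libraries of a group came from separate cultures, so p-values rest on spread between libraries that may be technical. The comparison asks which transcripts differ when ZDHHC20 is silenced.

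Cytokine receptors carry no kinase activity of their own and bind Janus kinases on the inside of the cell membrane. When a cytokine joins the receptor chains, the Janus kinases phosphorylate the receptor and then the STAT proteins, which pair up, enter the nucleus and bind gene promoters. SOCS proteins, which STATs switch on, bind the kinases and receptors and end the signal. In pancreatic cancer the pathway is best known for STAT3 downstream of the IL-6 family of cytokines. The values below are levels of RNA and not of phosphorylated or palmitoylated protein.

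STAT5B, STAT5A and STAT3 are neighbours on chromosome 17 of GRCh38, with STAT5B (ENSG00000173757) at chr17:42199168-42276707 on the minus strand, STAT5A (ENSG00000126561) at chr17:42287547-42311943 on the plus strand, and STAT3 (ENSG00000168610) at chr17:42313324-42388568 on the minus strand. STAT2 (ENSG00000170581) and STAT6 (ENSG00000166888) share chromosome 12, at chr12:56341597-56360155 and chr12:57095408-57132139, both on the minus strand. JAK1 (ENSG00000162434) lies at chr1:64833229-64966504 on the minus strand, JAK2 (ENSG00000096968) at chr9:4984390-5128183 on the plus strand, and TYK2 (ENSG00000105397) at chr19:10350529-10380676 on the minus strand. SOCS3 (ENSG00000184557), the shortest of them with 2734 exonic bases, lies at chr17:78356778-78360077 on the minus strand. All 9 are annotated as protein-coding.

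STAT5A and STAT5B are near copies of each other, which bears on how their reads can be told apart. Their coding sequences were identical at 2088 of 2348 aligned bases (88.9%), and 1 run of 429 bases, coding positions 564 to 992 in both genes, did not differ at any base. The start of that run is shown from the GENCODE transcripts of each gene, with 12 flanking bases in lower case and the first 48 bases of the shared run in capitals.
STAT5A: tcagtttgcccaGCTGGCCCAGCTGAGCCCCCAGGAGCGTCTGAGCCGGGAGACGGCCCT
STAT5B: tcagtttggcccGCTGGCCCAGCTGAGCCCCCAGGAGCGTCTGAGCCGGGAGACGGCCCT
Of the 5889 windows of 50 bases in STAT5A exons, 507 (8.61%) also occurred in STAT5B, and of the 6491 windows in STAT5B, 580 (8.94%) occurred in another gene, 507 of them in STAT5A. The share was 1.20% for STAT3 and under that for STAT2, STAT6 and TYK2, and it was 0 for JAK1, JAK2 and SOCS3. How reads that match both genes were counted is not given in the sources used here, so the values of STAT5A and STAT5B are less certain than the others.

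Each value is a normalized count, which has the same scale in all 6 libraries but is not divided by gene length. Fold changes are on the log2(normalized count + 0.1) scale, and a gene is called where limma's moderated test gave an adjusted p under 0.05 over the 22189 genes whose mean reached 1. That test draws the spread of each gene toward that of genes with a similar mean. An SE or p from limma is thus not set by the gene's own libraries alone. Of the 22189 genes, 11.5% were called, 4.61% higher and 6.84% lower in shZDHHC20. With the values scaled to equal sums per library instead, 56.9% of the called genes were higher, against 40.3% here, and of the 9 genes only STAT5A, which lies near 0, changed its sign. The silenced gene ZDHHC20 had 2001, 2033 and 1940.4 in the shControl libraries and 872, 779 and 893 in the shZDHHC20 libraries, a mean of 42.6% of the control. All 9 JAK-STAT genes passed the filter. STAT3, STAT2 and JAK1 rose in shZDHHC20, and no gene of the 9 was called lower, although 4 were lower at an unadjusted p under 0.05 from limma. The median log2 fold change of the 9 was -0.12, against 0.01 over all genes tested. Calls were more frequent among abundant genes: 21.7% of the 10908 genes whose mean reached 100 were called. Each of the 9 has a mean above that, so the 3 calls of 9 (33.3%) stand beside 21.7%, and no test was made of that difference.

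**Figure D1:**
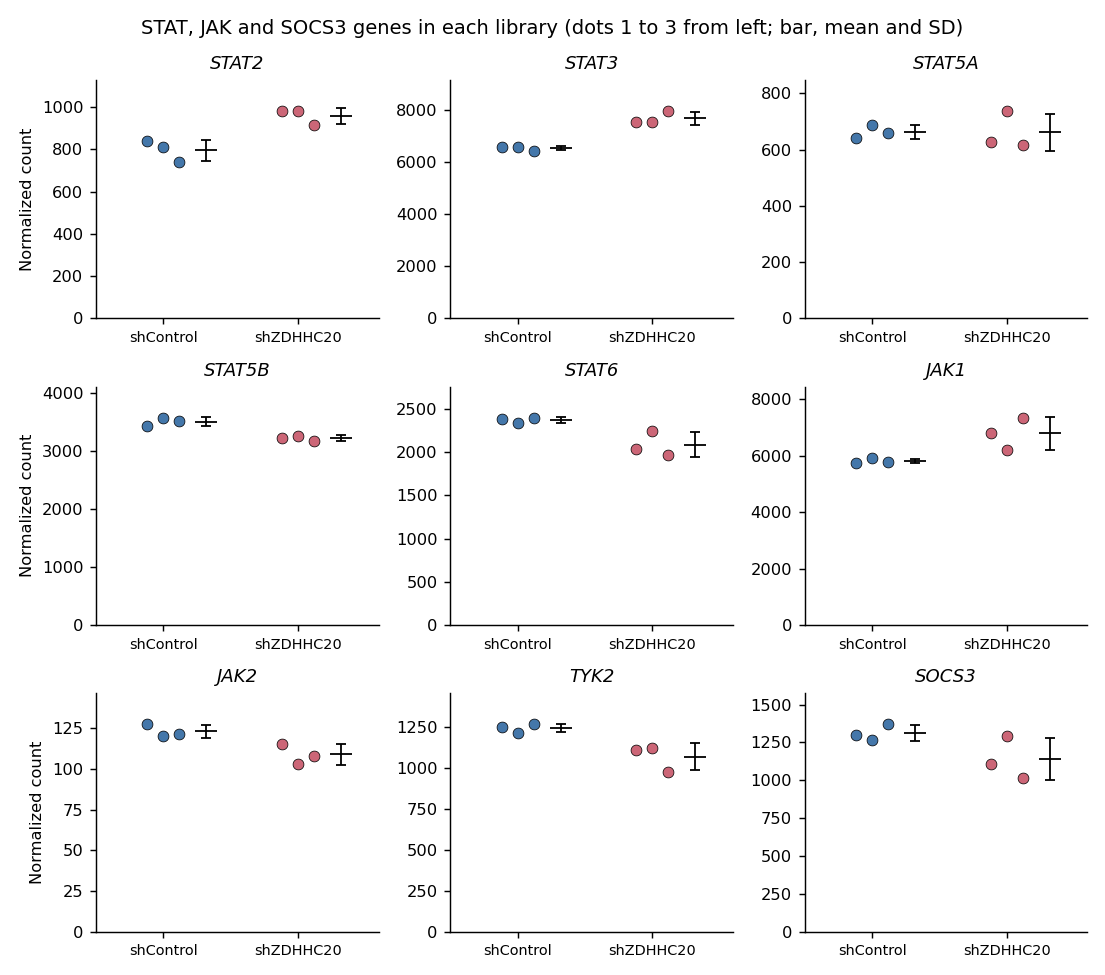
Normalized count (linear axis from 0) of each of the 9 genes in the 3 shControl libraries (blue) and the 3 shZDHHC20 libraries (red), with the mean and SD of each group (n = 3) beside the dots. STAT2, STAT3 and JAK1 lie higher in all 3 shZDHHC20 libraries than in any shControl library, STAT5B, STAT6, JAK2 and TYK2 lie lower in all 3, and STAT5A and SOCS3 overlap.

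STAT3, the factor through which IL-6 family cytokines act, had 6598, 6570.5 and 6448 normalized counts in the 3 shControl libraries, in the order of their replicate numbers, and 7554, 7534 and 7981 in those of shZDHHC20. The lowest shZDHHC20 library lay above the highest shControl library. The mean rose from 6539 ± 80.1 (SD, n = 3) to 7689.6 ± 252 (SD, n = 3), or a log2 difference of 0.23 (SE 0.0439, 95% interval 0.14 to 0.33, limma adjusted p = 0.00377). The call was lost only in a fit without a mean-variance trend (adjusted p = 0.133), among the 14 alternatives tried.

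STAT2, which joins IRF9 in the complex that switches on genes after type I interferon, had 838, 809.5 and 742 normalized counts in the shControl replicates and 983, 979.5 and 914 in the shZDHHC20 replicates. The groups did not overlap, and the gap between them was narrower than for STAT3 in relation to the spread. The mean rose from 796 ± 49.2 to 959 ± 38.6 (SD, n = 3 each), or a log2 difference of 0.27 (SE 0.0693, limma adjusted p = 0.0234). The call rests on all libraries but shZDHHC20 replicates 2 and 3: limma gave an adjusted p of 0.0507, 0.0787 and 0.14 without shControl replicate 1, 2 or 3, of 0.11 without shZDHHC20 replicate 1, and of 0.165 without the trend.

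STAT6, the factor downstream of IL-4 and IL-13, had 2379.7, 2334 and 2399 normalized counts in the shControl replicates and 2041, 2245 and 1969.9 in the shZDHHC20 replicates. All 3 shZDHHC20 values lay under all 3 control values, with replicate 2 nearest to them. The log2 fold change was -0.19 (95% interval -0.31 to -0.06, limma adjusted p = 0.0545), which misses the threshold. Without shZDHHC20 replicate 2 it was -0.24 and called (adjusted p = 0.000435). STAT6 stayed uncalled in 11 of the 14 alternatives, with a limma adjusted p up to 0.265 (without the mean-variance trend).

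STAT5B, which carries signals of growth hormone and IL-2 type cytokines, had 3433, 3583 and 3528 normalized counts in the shControl replicates and 3237, 3274 and 3174 in the shZDHHC20 replicates. Here too the groups did not overlap, but the difference was the smallest of the 7 genes with that property. Its log2 fold change was -0.12 (95% interval -0.22 to -0.02, limma adjusted p = 0.121), and it was -0.13 without shZDHHC20 replicate 2 (adjusted p = 0.0121). STAT5B stayed uncalled in 13 of the 14 alternatives, with a limma adjusted p up to 0.332 (without shControl replicate 2).

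STAT5A, the close paralog of STAT5B, had 641, 689 and 658 normalized counts in the shControl replicates and 629, 738 and 618 in the shZDHHC20 replicates. The shZDHHC20 libraries hold both the highest and the lowest value, and the group means were equal to within 1 count (662 ± 24.5 and 662 ± 66.6, SD, n = 3 each). The log2 fold change of -0.01 has a 95% interval from -0.18 to 0.17 (limma adjusted p = 0.977), so a change of the size seen for STAT3 lies outside it.

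Among the kinases, JAK1, which serves the IL-6, interferon and common gamma chain receptors, had 5740.5, 5905 and 5784 normalized counts in the shControl replicates and 6814, 6205 and 7349 in the shZDHHC20 replicates. The groups did not overlap, but the shZDHHC20 libraries spread much more widely than the shControl libraries. The mean rose from 5809.7 ± 85.0 to 6789.6 ± 573 (SD, n = 3 each), or a log2 difference of 0.22 (SE 0.0573, limma adjusted p = 0.0237). The call was lost without shControl replicate 1, 2 or 3 (adjusted p of 0.116, 0.0862 and 0.11), without shZDHHC20 replicate 1 (0.107) and without shZDHHC20 replicate 3 (0.0924, with a log2 fold change of 0.16).

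TYK2, the kinase of the type I interferon and IL-12 family receptors, had 1246, 1212 and 1264 normalized counts in the shControl replicates and 1107, 1120.4 and 974 in the shZDHHC20 replicates. All shZDHHC20 values were the lower ones. Its log2 fold change of -0.22 (95% interval -0.36 to -0.08) had an adjusted p of 0.0508 from limma, just over the threshold, and 0.0056 without shZDHHC20 replicate 2. Without shZDHHC20 replicate 3 the log2 fold change was -0.16. TYK2 stayed uncalled in 11 of the 14 alternatives, with a limma adjusted p up to 0.235 (without the mean-variance trend).

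JAK2, the kinase of the erythropoietin, growth hormone and prolactin receptors, was the least abundant of the 9, with 127, 121 and 121 normalized counts in the shControl replicates and 116, 103 and 108 in the shZDHHC20 replicates. The groups did not overlap, but the SE of the difference, 0.131, was the largest of the 9. Without the mean-variance trend the SE was 0.0701, so its size came from the trend and not from a wide spread between these libraries. The log2 fold change was -0.18 (95% interval -0.46 to 0.11, limma adjusted p = 0.46).

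SOCS3, the inhibitor that STAT3 induces and that binds the shared receptor chain IL6ST (gp130), had 1298, 1269 and 1369 normalized counts in the shControl replicates and 1109, 1291 and 1016 in the shZDHHC20 replicates. Replicate 2 of shZDHHC20 lay within the control range and the other two lay under it. The log2 fold change was -0.21 (95% interval -0.38 to -0.04, limma adjusted p = 0.121, exact permutation p = 0.2). Without shZDHHC20 replicate 2 it was -0.30 (adjusted p = 0.00114), and without shZDHHC20 replicate 3 it was -0.13. SOCS3 stayed uncalled in 13 of the 14 alternatives, with a limma adjusted p up to 0.379 (without the mean-variance trend).

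**Figure D2:**
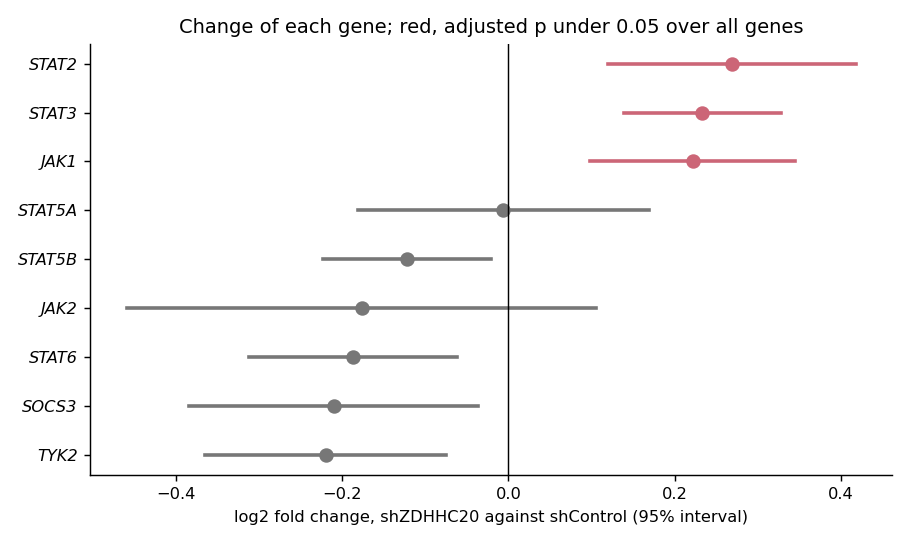
Log2 fold change of each of the 9 genes (dots) in shZDHHC20 against shControl with its 95% interval from limma (lines), sorted by size, in red where the adjusted p over all genes was under 0.05. STAT2, STAT3 and JAK1 lie between 0.22 and 0.27, STAT5A lies at -0.01, and the other 5 lie between -0.22 and -0.12 without a call.

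For 7 of the 9 genes the 2 groups of libraries did not overlap, 3 with the higher values in shZDHHC20 and 4 with the lower ones. This was so for 28.6% of all genes tested and for 42.6% of those whose mean reached 100. An exact permutation test over the libraries gives p = 0.1 for each of these 7, the smallest that 3 libraries against 3 allow. The median size of a log2 fold change was 0.25 over all genes tested, which STAT2 alone of the 9 exceeded, and 0.36 among called genes, which none of the 9 reached.

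Library shZDHHC20 replicate 2 stood apart, and its part in these results was not tested beyond leaving it out. Mitochondrial genes held 4.01% of its normalized counts and 5.28% to 5.52% in the other 5 libraries. Among the shZDHHC20 libraries it had the highest value of STAT5A, STAT5B, STAT6, TYK2 and SOCS3 and the lowest of STAT3, JAK1 and JAK2. Without it, 7 of the 9 genes were called and 4454 of the 22258 genes tested, against 3 and 2541 of 22189 with it. Calls thus rose over the whole table and not only among the 9. The share of abundant genes called without it was not computed.

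Ratios between members within a library do not depend on how that library was scaled. The log2 ratio of STAT3 to STAT5B was 0.94, 0.88 and 0.87 in the shControl replicates and 1.22, 1.20 and 1.33 in the shZDHHC20 replicates, so the group means of the ratio differed by 0.36 on the log2 scale, or 1.28 times. The ratio of JAK1 to JAK2 was higher in shZDHHC20 by 0.40 on the log2 scale, or 1.32 times, and that of SOCS3 to STAT3 differed by -0.44, which is 0.735 times its control value. The ratio of STAT5A to STAT5B differed by 0.12, and by 0.045 without shZDHHC20 replicate 2. None of these 4 ratios overlapped between the groups (two-sided exact permutation p = 0.1 each, 0.125 after adjustment over the 5 ratios), and no smaller p is possible with these libraries. The ratio of STAT3 to STAT2 differed by -0.04 and overlapped (exact permutation p = 0.6, adjusted p = 0.6).

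Levels can be compared between genes only per length. In shControl, normalized counts per kilobase of exon were 920 ± 13.5 for JAK1, 742 ± 9.08 for STAT3, 545 ± 11.8 for STAT5B, 479.8 ± 18.8 for SOCS3 and 325 ± 4.56 for STAT6 (SD, n = 3). Below these came TYK2 at 183 ± 3.85, STAT2 at 130.4 ± 8.06, STAT5A at 115 ± 4.26 and JAK2 at 19.9 ± 0.609 (SD, n = 3). No neighbours in this order overlapped over the 3 libraries. In shZDHHC20 the order was the same, except that TYK2 (158 ± 11.9) and STAT2 (157 ± 6.32) overlapped and could not be ranked. The order depends on the length used: per kilobase of the principal transcript, STAT3 (1296) lay above JAK1 (1151) and STAT6 (588) above SOCS3 (479.8) in shControl, and STAT2 (294) above TYK2 (245) in shZDHHC20.

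Per kilobase of exon, STAT3 made up 39.9 ± 0.360% of the summed level of STAT2, STAT3, STAT4, STAT5A, STAT5B and STAT6 in shControl and 45.2 ± 1.73% in shZDHHC20 (SD, n = 3). STAT2 went from 7.02 ± 0.405% to 8.12 ± 0.328%, while STAT5B went from 29.3 ± 0.563% to 25.9 ± 0.362% and STAT6 from 17.5 ± 0.383% to 14.8 ± 0.844%. The summed level itself was 1858 ± 14.8 in shControl and 1932 ± 25.8 in shZDHHC20. Of the 4 JAK genes, JAK1 held 80.2 ± 0.507% in shControl and 84.3 ± 1.68% in shZDHHC20, and TYK2 held 15.98 ± 0.441% and 12.4 ± 1.67%. Here the summed level was 1147 ± 10.0 in shControl and 1274 ± 83.8 in shZDHHC20.

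**Figure D3:**
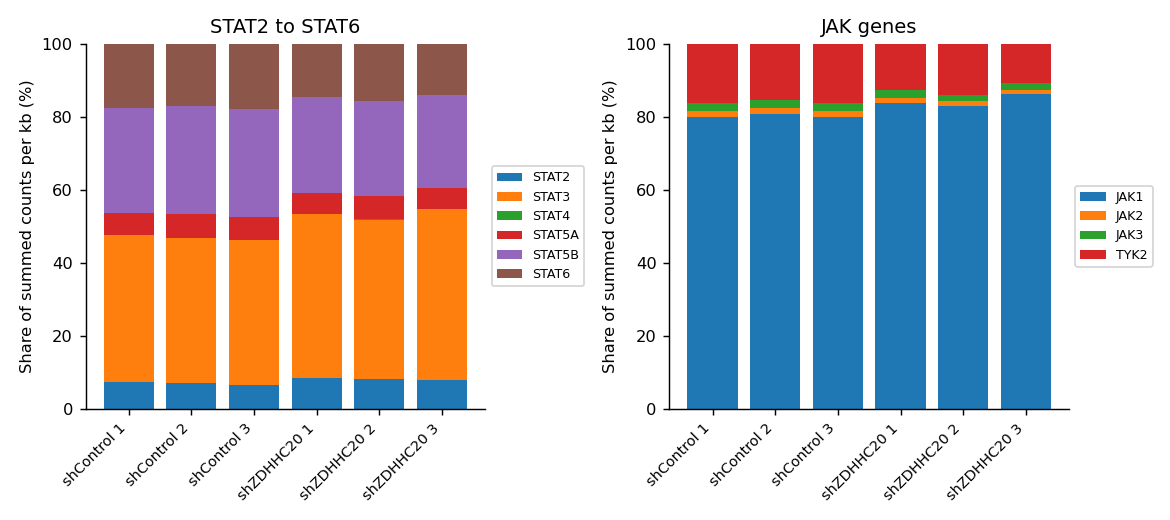
Share of each gene (stacked bars, %) in the summed normalized counts per kilobase of exon of STAT2, STAT3, STAT4, STAT5A, STAT5B and STAT6 (left) and the JAK genes (right) in each of the 6 libraries. STAT3 takes 39.7% to 40.3% in the shControl libraries and 43.6% to 47.0% in the shZDHHC20 libraries, and JAK1 takes 79.9% to 80.8% and 83.0% to 86.2%.

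None of STAT4, JAK3 and IRF9 was called by limma, and 0 of the 3 had an unadjusted p under 0.05. JAK3, the kinase bound to the common gamma chain, had means of 163 ± 2.38 and 161 ± 26.4 (SD, n = 3 each, adjusted p = 0.938). STAT4 was at or below 6.57 in every library, and IRF9, the DNA-binding partner of STAT2, had means of 26.4 ± 13.0 and 30.5 ± 1.11 (adjusted p = 0.629).

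Of 41 listed receptors that act through Janus kinases, 35 were in the table and 31 were tested. 7 of these 31 (22.6%) were called, 2 higher and 5 lower, with a median log2 fold change of -0.12. This share and those of the lists that follow stand beside the 11.5% of all genes and the 21.7% of abundant genes. IL6ST, the signal-transducing chain shared by IL-6, LIF and oncostatin M, had 6035, 6192 and 6386 normalized counts in the shControl replicates and 3622, 2922 and 3560 in the shZDHHC20 replicates. It fell by 0.89 on the log2 scale (SE 0.0710, limma adjusted p = 7.81e-06). IL6R, which binds IL-6 and hands it to IL6ST, had 479.97, 437 and 437 in the shControl replicates and 636, 666 and 706 in the shZDHHC20 replicates, and rose by 0.57 (adjusted p = 0.000379). The 2 chains of the IL-6 receptor thus moved in opposite directions, with no overlap between the groups for either.

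LEPR, the leptin receptor, which signals through JAK2 and, like IL6ST, activates STAT3, rose from 202 ± 13.2 to 386 ± 32.9 (SD, n = 3 each), or a log2 difference of 0.93 (limma adjusted p = 6.31e-05). Its exons share 165 bases with LEPROT on the same strand, so some of its reads cannot be assigned with certainty. IL4R, the receptor chain through which IL-4 activates STAT6, fell from 787 ± 34.4 to 618 ± 45.8 (log2 fold change -0.35, adjusted p = 0.00904), a call lost without shControl replicate 1 or 3 (adjusted p of 0.0597 and 0.064). IL27RA (-0.47), IL22RA1 (-1.69) and EPOR (-0.34), the receptors of IL-27, IL-22 and erythropoietin, were also called lower. IL27RA and IL22RA1 lost their calls without shControl replicate 1 or 3 or shZDHHC20 replicate 1 or 3, and EPOR without any 1 library other than shZDHHC20 replicate 2, with adjusted p up to 0.159. LIFR and OSMR, the partner chains of IL6ST for LIF and oncostatin M, had log2 fold changes of -0.15 and -0.14 and were not called (adjusted p of 0.114 and 0.168). IL6ST shares 8.58% of its exonic bases with an antisense RNA and IL4R 5.75%, and whether counting used the strand is not given in the sources used here.

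Of 37 listed ligands, 20 were in the table and 15 were tested, of which 2 (13.3%) were called, both lower. EBI3, a subunit of IL-27, fell from 63.3 ± 13.8 to 27.4 ± 5.04 normalized counts (SD, n = 3 each, log2 fold change -1.20, limma adjusted p = 0.00699), and the adjusted p was 0.0576 without shControl replicate 2. LIF, the leukaemia inhibitory factor, had 1909, 1744 and 1716 in the shControl replicates and 1367, 1652 and 1322 in the shZDHHC20 replicates (log2 fold change -0.31, adjusted p = 0.0230), and its call was lost without any 1 library other than shZDHHC20 replicate 2, with adjusted p from 0.0663 to 0.134. IL11, another ligand of IL6ST, had means of 78.1 ± 14.6 and 91.3 ± 13.6 and was not called (adjusted p = 0.501). IL6 and OSM had means of about 1 normalized count or less in both groups and were not tested, so a change in them was not detectable at this depth.

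**Figure D4:**
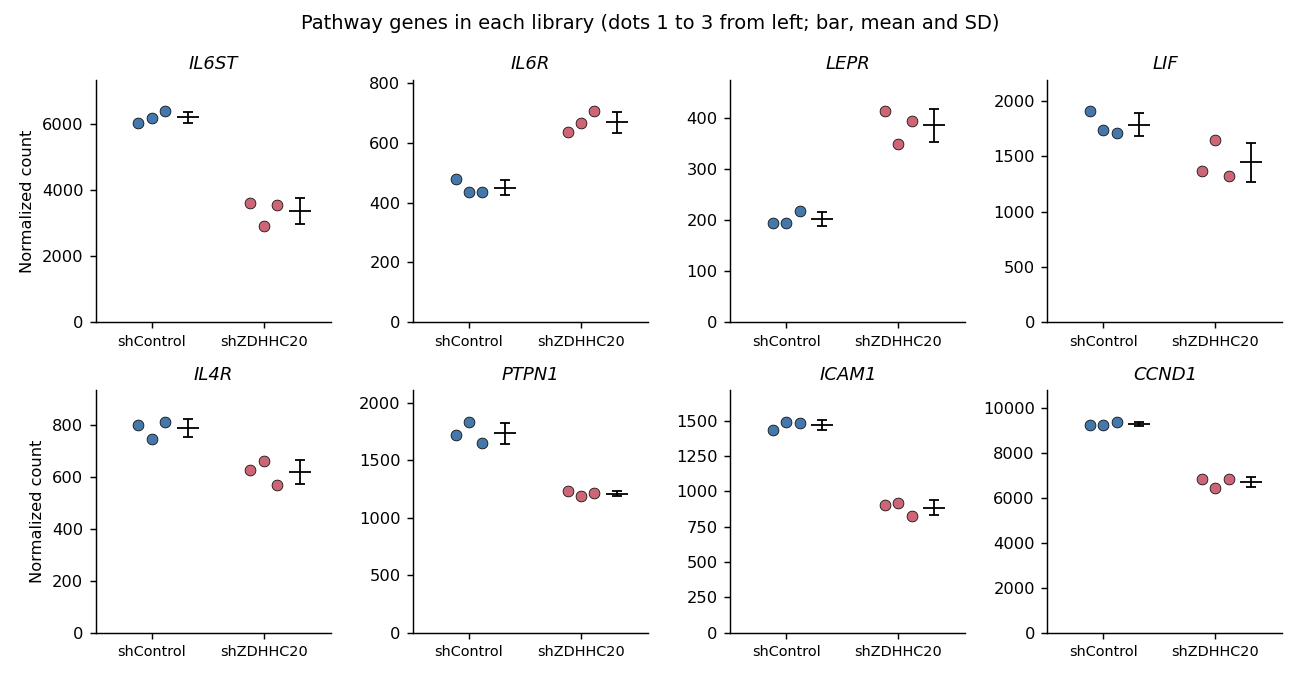
Normalized count (linear axis from 0) of 8 pathway genes in the 3 shControl libraries (blue) and the 3 shZDHHC20 libraries (red), with the mean and SD of each group (n = 3). IL6R and LEPR lie higher in all 3 shZDHHC20 libraries, and IL6ST, LIF, IL4R, PTPN1, ICAM1 and CCND1 lie lower in all 3.

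Beside SOCS3, 24 negative regulators were listed, and 5 of the 22 tested (22.7%) were called, 1 higher and 4 lower, with a median log2 fold change of -0.04. PTPN1, the phosphatase PTP1B that removes phosphate from JAK2 and TYK2, had 1719, 1832 and 1654 normalized counts in the shControl replicates and 1229, 1189.9 and 1213 in the shZDHHC20 replicates, with no overlap. It fell by 0.52 on the log2 scale (SE 0.0586, limma adjusted p = 8.96e-05). SH2B3 (LNK), an adaptor that restrains JAK2, fell from 1304 ± 82.4 to 979 ± 39.0 (adjusted p = 0.00120), and SOCS4 from 1048 ± 20.6 to 851 ± 55.3 (adjusted p = 0.00993). The SOCS4 call was lost without shControl replicate 2 or 3 (adjusted p of 0.0654 and 0.0558). PIAS3, which binds STAT3 in the nucleus, was called lower (-0.24), and PTPN11 (SHP2), a phosphatase recruited to IL6ST, was called higher (0.23). PIAS3 lost its call without shControl replicate 1, 2 or 3 or shZDHHC20 replicate 1, and PTPN11 without shControl replicate 1 or 2 or shZDHHC20 replicate 1 or 3, with adjusted p up to 0.0833. SOCS1, SOCS2, SOCS5, SOCS6, SOCS7 and CISH were not called.

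Genes known to respond to STAT3 were listed by hand as well. Of 37 tested, 12 (32.4%) were called, 2 higher and 10 lower, and the median log2 fold change was -0.17 against 0.01 over all genes. ICAM1, an adhesion molecule, had 1432, 1490.5 and 1486 normalized counts in the shControl replicates and 905, 921 and 824 in the shZDHHC20 replicates. It fell by 0.74 on the log2 scale (SE 0.0634, limma adjusted p = 1.30e-05). CCND1, cyclin D1 of the G1 phase, fell from 9291 ± 78.5 to 6712 ± 221 (SD, n = 3 each, log2 fold change -0.47, adjusted p = 2.06e-05). KLF6, a zinc finger transcription factor, rose from 3376 ± 53.7 to 4662 ± 60.5 (log2 fold change 0.47, adjusted p = 2.70e-05).

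The other STAT3-responsive genes called lower were the gelatinase MMP2 (-0.51), the receptor TNFRSF1A (-0.35), the protease inhibitor TIMP1 (-0.32), the kinase PIM3 (-0.28), the survival factor MCL1 (-0.25), the corepressor SBNO2 (-0.21), the transcription factor CEBPB (-0.20) and IL4R, which the receptor list also holds. The mucin MUC1 was called higher (0.38). CEBPB and MUC1 lost their calls without any 1 library other than shZDHHC20 replicate 2, and PIM3 and SBNO2 without shControl replicate 1 or 3 or shZDHHC20 replicate 1 or 3, with adjusted p up to 0.2003. Within this list the STAT3 targets BCL2L1, BIRC5, VEGFA, PIM1 and BCL3 were not called, with adjusted p from 0.177 to 0.908. Antisense genes cover 22.0% of the exonic bases of ICAM1, 11.8% of CEBPB and 10.3% of CCND1. Many of these genes also respond to other factors, and whether their changes depend on STAT3 was not tested.

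Of 41 interferon-responsive genes tested, 8 (19.5%) were called, 2 higher and 6 lower, with a median log2 fold change of 0.09. IRF1, a transcription factor that interferon induces, fell from 425 ± 23.9 to 298 ± 20.6 normalized counts (SD, n = 3 each, log2 fold change -0.51, limma adjusted p = 0.00247). IFITM3, a membrane protein that blocks virus entry, fell from 5997 ± 146 to 5066 ± 140.2 (-0.24, adjusted p = 0.00357), and TAP1, the peptide transporter of antigen presentation, from 1279.7 ± 48.6 to 957 ± 138 (-0.43, adjusted p = 0.00623). The TAP1 call was lost without shControl replicate 3 or shZDHHC20 replicate 1 (adjusted p of 0.0506 and 0.0528). IFI6 (-0.75), PSMB9 (-0.65) and OAS3 (-0.31) were called lower as well, while OASL (0.70) and IFIT3 (0.47) were called higher. Of these 5, PSMB9 and OAS3 lost their calls without any 1 library other than shZDHHC20 replicate 2. Without shZDHHC20 replicate 1 or 3 the others lost theirs too, as did IFI6 without shControl replicate 1 or 3, OASL without shControl replicate 1 or 2 and IFIT3 without shControl replicate 2 or 3, with adjusted p up to 0.170. ISG15, the ubiquitin-like protein made on interferon exposure, had means of 1084 ± 38.0 and 1101 ± 52.5 and was not called (adjusted p = 0.878). Antisense genes cover 22% of the exonic bases of IRF1 and 21.3% of those of IFITM3.

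Of 16 tested genes that respond to STAT5 or STAT6, 3 (18.8%) were called. The transcription factors PPARG (log2 fold change 0.26, limma adjusted p = 0.0203) and GATA3 (0.33, adjusted p = 0.0388) were higher and IL4R was lower. The PPARG call was lost without shControl replicate 1 or 2 or shZDHHC20 replicate 1 or 3, with adjusted p up to 0.121, and the GATA3 call without any 1 library other than shZDHHC20 replicate 2, with adjusted p up to 0.155. CISH and SOCS2, classical targets of STAT5, had log2 fold changes of -1.17 and -0.24 and were not called (adjusted p of 0.181 and 0.0930).

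**Figure D5:**
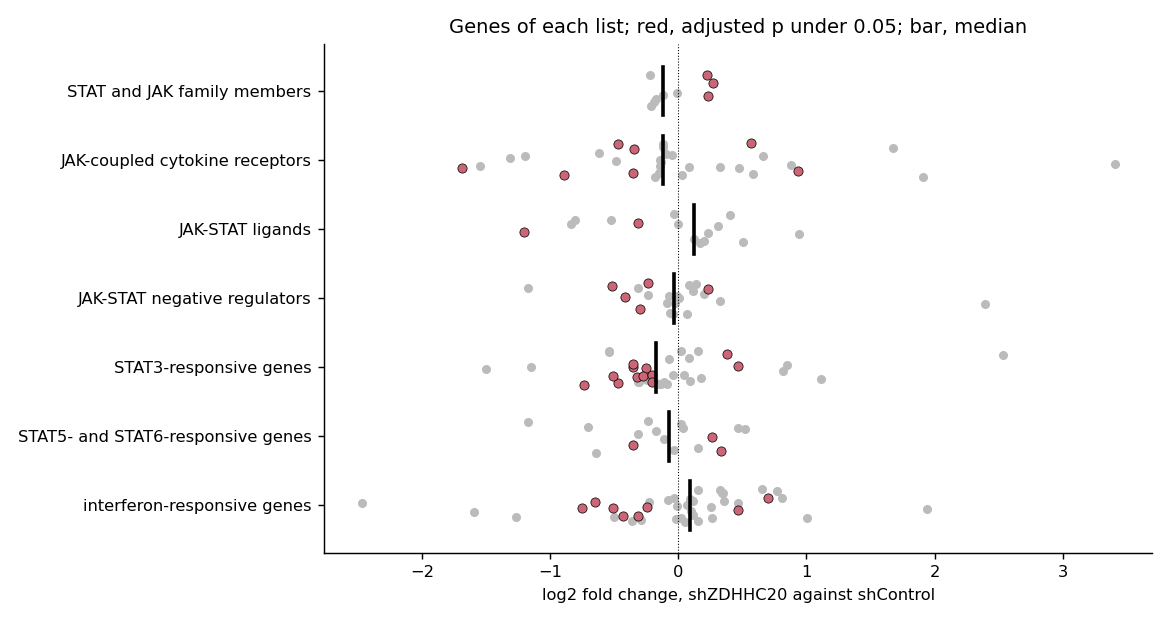
Log2 fold change (shZDHHC20 against shControl) of each tested gene of the 9 named family genes and of 6 pathway lists, in red where the adjusted p over all genes was under 0.05, with the list median as a bar. Among the STAT3-responsive genes 10 of the 12 called lie below 0, and the list medians lie between -0.17 and 0.12.

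STAT dimers bind a short palindrome in DNA, and promoters were searched for it on both strands within 250 bases before each RefSeq start site (GRCh38.p14). The search covered the 9 genes and 29 of the 35 other called genes of the pathway lists, those with an entry in the promoter table, and not CCND1, LIF, MCL1, MMP2, OASL or PTPN11. The STAT site TTCNNNGAA was found in 6.57% of all 35116 promoters, the spaced form TTCNNNNGAA that STAT6 favours in 5.38%, and GAAANNGAAA, a core of the interferon response element, in 3.02%. The 9 genes have 17 start sites, of which 0 hold the first motif, 1 the second and 0 the third. The SOCS3 start sites searched, at 78359667 and 78360925, differ from its GENCODE start at 78360077. The 250 bases before that GENCODE start were not searched, so a motif there would be missed. Among the 29 other genes, with 46 start sites, the STAT site was found in 3 (ICAM1, IRF1 and TAP1), the spaced form in 0 and the interferon motif in 5 (IFI6, IFIT3, IFITM3, OAS3 and TAP1). By list, 1 of the 9 STAT3-responsive genes searched and 6 of the 7 interferon-responsive genes searched held a match to any of the motifs. None of the 7 receptors, 1 ligand and 4 negative regulators searched did. These counts are per gene over all its start sites, while the shares of all promoters are per start site and motif. The counts and shares are therefore not on the same basis. The stretches with a match are shown for ICAM1 and IRF1, a STAT3-responsive and an interferon-responsive gene that fell, and for STAT5A, with the match in capitals and in the direction of transcription.
ICAM1, chr19:10271015-10271083 (+): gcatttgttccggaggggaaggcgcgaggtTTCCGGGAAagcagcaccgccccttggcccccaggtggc
IRF1, chr5:132490859-132490927 (-): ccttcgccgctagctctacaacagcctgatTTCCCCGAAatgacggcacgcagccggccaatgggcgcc
STAT5A, chr17:42287189-42287249 (+): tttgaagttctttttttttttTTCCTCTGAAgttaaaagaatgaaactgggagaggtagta
A match shows only that these letters are present, and no binding was measured in these libraries.

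Genes with a profile most like that of STAT3 over the 6 libraries were MED11 (Pearson r = 0.997), STAMBP (0.997) and KIAA0232 (0.995), out of 10907 genes whose mean reached 100. For STAT2 they were PRKCD (0.991), AGAP6 (0.990) and CERK (0.988). These values describe 6 libraries that fall into 2 groups, so they carry no p.

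The listed epithelial markers were not all high. KRT8, KRT18 and KRT19, the keratins of simple epithelia, had means between 5917 and 56187 normalized counts. In shControl, CDH1 had a mean of 287, KRT7 of 86.5 and EPCAM of 72.4, all below the collagen COL1A1. The pan-leukocyte marker PTPRC was between 0 and 6.36 in the 6 libraries, and the 7 tested haematopoietic markers summed to between 72.1 and 127. None of those 7 was called by limma, and 1 had an unadjusted p under 0.05. Of the fibroblast and endothelial markers, 6 of 11 were tested and 1 was called, the collagen COL1A1, with means of 3931 ± 42.7 in shControl and 3260.2 ± 134 in shZDHHC20. Of the 6 epithelial markers 2 were called: EPCAM and CDH1, adhesion molecules, rose in shZDHHC20, with log2 fold changes of 2.89 and 1.13. The keratins were not called, with log2 fold changes of -0.16 for KRT18, -0.13 for KRT8, -0.06 for KRT7 and 0.09 for KRT19. The part of these markers in the changes above was not tested. In these bulk libraries, fewer cells of a kind and less RNA per cell cannot be told apart.

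The study lists hairpins against ZDHHC20 without naming the one used for these libraries. As read from an image of that list, whose letters may be wrong, the target of 1 of its 2 hairpins against ZDHHC20 (21 bases) matched 7 STAT3 transcripts of GENCODE and 0 of ZDHHC20, and the target of the other (19 bases) matched 8 ZDHHC20 transcripts and the pseudogene ZDHHC20P4. In the shZDHHC20 libraries ZDHHC20 was at 42.6% of its control mean and STAT3 at 118%. The part of either hairpin in the STAT3 values was not tested.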

How the data were processed

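RNA-seq of PANC-1 cells was analysed in 3 shControl and 3 shZDHHC20 libraries, prepared from total RNA with a strand-specific kit per the labels. The authors deposited 1 normalized signal value per gene and library for 27394 genes. The file is named as FPKM, but in each library all values are whole multiples (within 0.05 of a step) of 1 step of 0.939 to 1.06, as counts divided by a size factor are, so they are called normalized counts. If 1 step is 1 read, the libraries hold 16575546 to 18441049 reads. The submitters' processing notes name hg19; aligner, counter and annotation are not given in the sources used here, and the paper names no test for these libraries. Its columns, named NC and siZDHHC20, were matched to the samples by group and number.

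Symbols came from the gene name list given (27175 identifiers) and GENCODE 29 (219), and positions, lengths and overlaps from GENCODE 29 on GRCh38, which is not the build of the files. Values were log2-transformed after adding 0.1, genes with a mean of at least 1 were kept, and groups were compared with limma 3.58.1 (lmFit, eBayes with a mean-variance trend) in R 4.3.3 with data.table (1.17.8). Tests were two-sided, with Benjamini-Hochberg adjustment over all 22189 genes, and intervals cover 95%. Single genes and ratios were also tested by exact permutation. Figures were drawn with matplotlib 3.10.9 in Python 3.11.15. On simulated data, 200 of 200 genes changed 2-fold were recovered, with 0 false calls among 22530 genes.

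The 9 genes and the pathway lists were chosen with earlier results of these data known. The genes named are the 9, STAT4, JAK3, IRF9, ZDHHC20, from every list the 3 lowest by adjusted p, and the 3 genes most correlated with STAT3 and with STAT2. Further genes of the lists, and the markers named, were picked after their values were seen, and 1 gene of the lists is not reported here. Alternatives were a fit without the trend or with the replicate number as a block, quantile normalization or median-ratio scaling, a pseudocount of 1, a minimum mean of 10 or none, and leave-one-out fits. Scaling to equal sums was added after seeing the data.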

Additional observations from a re-analysis of the deposited data

How the results depend on the processing

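The calls depended most on the variance model and on single libraries. Without a mean-variance trend, 351 genes passed the threshold in place of 2541, 261 of them shared with those 2541. The counts were then 0 for the 9 family genes, 3 for receptors, 0 for ligands, 1 for negative regulators, 4 for STAT3-responsive, 1 for interferon-responsive and 0 for STAT5- and STAT6-responsive genes, and STAT2 (0.27), STAT3 (0.23) and JAK1 (0.22) lost their calls at the same log2 fold changes. With a pseudocount of 1 or a mean of at least 10, 5 of the 9 were called, STAT6 (-0.19) and TYK2 (-0.22) being added in both. The genes called in all were then 2719 of 22189 and 2936 of 15101, in that order. Leaving out 1 library gave 1233 to 4454 genes, 1 to 7 of the 9 family genes, 3 to 7 receptors, 0 to 2 ligands, 2 to 8 negative regulators, 7 to 18 STAT3-responsive, 2 to 12 interferon-responsive and 0 to 4 STAT5- and STAT6-responsive genes, in each case the most without shZDHHC20 replicate 2. In these fits the log2 fold change lay between 0.22 and 0.31 for STAT2, 0.21 and 0.28 for STAT3, 0.16 and 0.28 for JAK1, -0.14 and -0.11 for STAT5B, -0.24 and -0.15 for STAT6, -0.26 and -0.16 for TYK2, and -0.30 and -0.13 for SOCS3.

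Over these alternatives, signs turned for 3 uncalled genes and 1 ratio. STAT5A was at 0.012 with quantile normalization and 0.036 with equal sums, and from -0.088 to 0.041 with 1 library left out. JAK3 was at 0.015 with equal sums and between -0.12 and 0.11 with 1 library left out, IRF9 between -0.094 and 0.69, and the log2 ratio of STAT3 to STAT2 between -0.096 and 0.0047. Equal sums, which moved the median log2 fold change of all genes from 0.01 to 0.06, called 2639 genes, 56.9% of them higher against 40.3% in the values reported, and 1 ligand.

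With a replicate block, 1942 genes and 3 of the 9 were called (STAT3 with an adjusted p of 0.0176), and the lists held 7 called receptors, 2 ligands, 5 negative regulators, 9 STAT3-responsive, 6 interferon-responsive and 2 STAT5- and STAT6-responsive genes. CEBPB, MUC1, SBNO2, IFIT3, OAS3 and GATA3 lost their calls, with adjusted p from 0.0512 to 0.0782. Same-numbered libraries were not more alike: their deviations from the group mean correlated at -0.0948, -0.156 and -0.0771 over 10908 genes. For differently numbered libraries the values ran from -0.0918 to 0.154. Deviations from a mean of 3 libraries are tied to each other, so these values cannot show that the libraries were unpaired. edgeR and DESeq2 on whole reads were planned and not run. All values were whole multiples of a step, but the shControl steps of 1.001 to 1.01 lie close to 1. They were therefore not accepted as recovered reads, and no count test stands beside limma.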
